A study of Mus musculus with 4 samples.

Results

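Fat cell identity and lipid storage were followed through 32 genes in the colons of mice with dextran sulfate sodium (DSS) colitis. The genes were taken by name as a list of fat cell hormones, lipid droplet proteins and enzymes of fat uptake, synthesis and breakdown. The rule uses no signal, but the list was chosen with earlier results of these data known, so counts over it are descriptions. They were split into 14 genes classed as largely restricted to fat ("fat-restricted") and 18 that many other tissues express as well ("widely expressed"). The split followed textbook knowledge of where each gene is expressed and was not tested in these samples. All 32 had probes on the array, and 30 of them (12 fat-restricted and 18 widely expressed) were among the 19325 genes bright enough to be tested.

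Fat cells hold triglyceride in a large droplet that is coated by perilipins and CIDE proteins. They take up fatty acids freed from blood lipoproteins by lipoprotein lipase, make more from glucose, release them again when adrenergic signals switch on lipolysis, and secrete hormones such as adiponectin and leptin. PPARG and C/EBP alpha are the transcription factors that drive their differentiation. In the gut most fat cells lie in the mesentery, on the outer side of the bowel wall, and how much of it stayed on these colons is not given in the sources used here.

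The study measured total RNA of the whole colon on day 5 of DSS, an agent in the drinking water that injures the colonic epithelium, on one-colour Agilent arrays. The controls were 2 samples from C57BL/6 mice of the genotype Junbfl/fl, and the mutants were 2 samples from C57BL/6 mice of the genotype Junbfl/flCd4-Cre. All 4 thus carried the floxed allele of Junb, which encodes an AP-1 transcription factor, and all received DSS. Cd4-Cre is active in T cells, so other cells of the mutants, fat cells included, are not a target of the deletion, and RNA of whole colon gives no check of it: Junb gave 4.23 and 4.39 in the controls against 4.44 and 4.47 in the mutants. The stated purpose was to describe the DSS colitis of the mutants, which the submitters call exacerbated. Age, sex and the DSS dose are not given in the sources used here. The samples are labelled as separate samples, but the labels do not say that each came from 1 animal, so the spread between them may be technical in part. The female transcript Xist was high on both arrays of replicate 1 (-0.55 and -0.77) and at -6.13 and -6.43 on those of replicate 2, and the Y-linked Eif2s3y ran the opposite way, so each genotype had 1 array of each sex.

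Signals are given as log2 of the processed signal relative to the 75th percentile of the same array: 0 is the signal at that percentile and each unit is a doubling. Differences are mutant minus control on that log2 scale with their standard error (SE), from 2 arrays per genotype. Levels on this scale are not compared between genes, since each probe has its own brightness. Between 27935 and 29090 of 56605 probes were well above background on each array, and none was saturated. A gene was called when the Benjamini-Hochberg adjusted p of limma, taken over all 19325 genes, was under 0.05. No gene was called (0%), whereas 770 genes (3.98%) were lower and 1026 (5.31%) were higher in the mutants at an unadjusted p under 0.05. All differences described here are therefore differences between these 4 arrays that did not pass correction for the number of genes.

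Of the 12 fat-restricted genes tested, 11 had lower mean signal in the mutants, as had 46.6% of all genes. At an unadjusted limma p under 0.05, 6 of the 12 were lower (against 3.98% of all genes) and 0 higher: Adipoq, Cfd, Retn, Thrsp, Fabp4 and Adrb3. Both mutant arrays lay below both control arrays for 7 (58.3%, against 17.6% of all genes) and above them for 1 (against 25.7% of all genes). The median difference of the 12 genes was -0.82, beside 0.022 over all genes tested. The 18 widely expressed genes had a median of -0.31, with 12 lower, 3 of them at an unadjusted p under 0.05 (Lpl, Slc2a4 and Acsl1; 16.7%), and with 8 showing both mutants below both controls. In RNA of whole tissue, fewer cells of a type and less RNA per cell cannot be told apart.

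**Figure D1:**
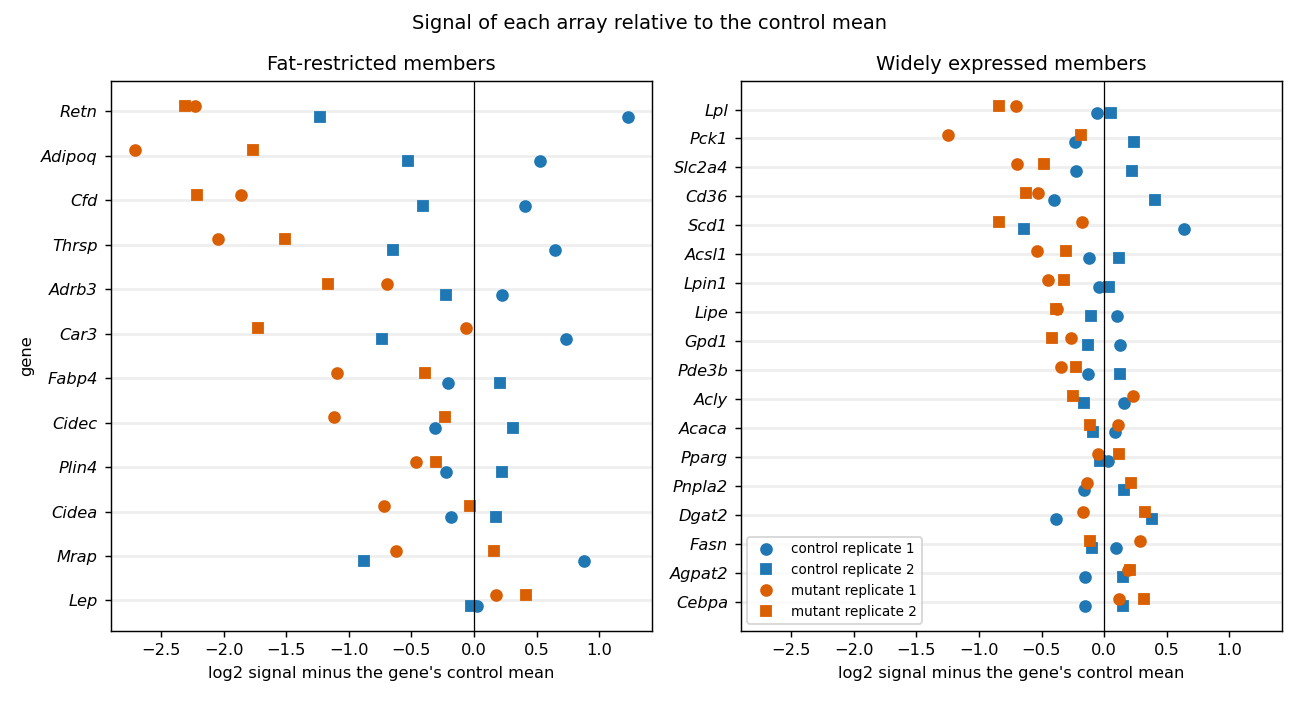
Each point is 1 array: log2 signal of a gene minus the mean of the 2 control arrays (x axis) for the 12 fat-restricted genes tested (left) and the 18 widely expressed genes (right), with circles for replicate 1 and squares for replicate 2. Retn, Adipoq, Cfd and Thrsp stand farthest to the left in the mutants, Lep lies to the right, and for Retn, Adipoq, Thrsp, Car3, Mrap and Scd1 the 2 control arrays lie more than 1 log2 unit apart.

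The largest differences among the members were in 3 secreted products, Retn, Adipoq and Cfd. Adipoq encodes adiponectin, a hormone that raises insulin sensitivity. It gave -0.74 and -1.80 in the controls against -3.98 and -3.04 in the mutants. The groups did not overlap, and its single probe was not well above background on the array of mutant replicate 1. The difference was -2.24 ± 0.49 (SE), a 4.72-fold lower processed signal, with a limma adjusted p of 0.418. With normexp background correction and an offset of 50 added to every signal, the difference was -1.03. Such an offset by itself makes differences of dim signals smaller, and its part was not separated from that of the background correction. That probe lies within the coding sequence, at chr16:23157576-23157635 of mm9, and its sequence shows what was measured.

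Adipoq probe: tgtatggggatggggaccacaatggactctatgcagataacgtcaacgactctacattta

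Cfd, which encodes adipsin, the protease complement factor D that fat cells secrete, gave 3.36 and 2.54 in the controls against 1.09 and 0.74 in the mutants. The values did not overlap between genotypes. Cfd differed by -2.04 ± 0.30, a 4.10-fold lower signal (limma adjusted p = 0.417). A second probe of Cfd gave -2.04 too, but it overlaps the first in sequence and is not an independent measure. A fit with the replicate number as a block called 11 genes lower (0.0569%) and 35 higher (0.181%), Cfd being the one member among them (adjusted p = 0.0416). Since the replicate numbers follow sex, that block is also a block for sex. In it 9 of the 12 fat-restricted genes were lower at an unadjusted p under 0.05, beside 1437 of all 19325 genes.

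Retn encodes resistin, a hormone of mouse fat cells. Its signal was 0.21 and -2.24 in the controls against -3.25 and -3.32 in the mutants. Control replicate 1 stood apart from the other 3 arrays, although the second control was still above both mutants. The difference of -2.27 ± 0.79, or 4.83-fold lower (limma adjusted p = 0.504), was -1.04 without control replicate 1 and -3.50 without control replicate 2. Its other probe gave -2.55.

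Lep, the gene for leptin, a satiety hormone made in proportion to fat stores, was the exception among the fat-restricted genes. It gave -2.77 and -2.81 in the controls against -2.62 and -2.37 in the mutants. Both mutants lay above both controls, by 0.30 ± 0.23 (limma adjusted p = 0.701). The median of the 4 secreted products was -2.14.

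Thrsp and Car3 are abundant fat cell genes of the cytosol and nucleus: Thrsp responds to thyroid hormone and carbohydrate and promotes fatty acid synthesis, and Car3 is a carbonic anhydrase. Thrsp gave -0.66 and -1.96 in the controls against -3.35 and -2.82 in the mutants, without overlap. It differed by -1.78 ± 0.48, or 3.43-fold lower (limma adjusted p = 0.428). Its other probe gave -2.09 but was well above background on only 2 arrays, so the filter may fix its direction. Car3 gave 0.96 and -0.51 in the controls against 0.16 and -1.501 in the mutants, so that the groups overlapped. Within each genotype the Car3 signal was higher on the array of replicate 1, the array with high Xist. The difference of -0.89 ± 0.71 was smaller than 2 SE (limma adjusted p = 0.710). It was -0.80 within the replicate 1 pair and -0.99 within the replicate 2 pair, and it ran from -1.72 without mutant replicate 1 to -0.062 without mutant replicate 2. In the fit with the replicate block Car3 had an adjusted p of 0.0903.

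The promoters of the 4 genes with the largest differences and of Lep are shown as the 120 bases before the annotated start (RefSeq, GRCm38.p6), because in these 4 both mutant arrays lay below both controls and in Lep above them. They lie at chr16:23146416-23146535 (Adipoq, plus strand), chr10:79890733-79890852 (Cfd, plus strand), chr8:3655650-3655769 (Retn, plus strand), chr7:97417551-97417670 (Thrsp, minus strand) and chr6:29060101-29060220 (Lep, plus strand). Capitals mark the palindromic C/EBP site TTGCGCAA, which of the 5 windows only that of Lep held.
Adipoq: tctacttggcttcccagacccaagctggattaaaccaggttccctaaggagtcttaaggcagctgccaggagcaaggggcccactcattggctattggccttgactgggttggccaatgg
Cfd: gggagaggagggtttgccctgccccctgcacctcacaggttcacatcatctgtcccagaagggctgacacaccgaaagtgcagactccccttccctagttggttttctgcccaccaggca
Retn: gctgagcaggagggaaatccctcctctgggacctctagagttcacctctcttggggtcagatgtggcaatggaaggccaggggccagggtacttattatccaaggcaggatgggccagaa
Thrsp: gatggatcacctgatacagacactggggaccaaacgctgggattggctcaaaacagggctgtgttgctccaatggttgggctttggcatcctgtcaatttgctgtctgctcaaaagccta
Lep: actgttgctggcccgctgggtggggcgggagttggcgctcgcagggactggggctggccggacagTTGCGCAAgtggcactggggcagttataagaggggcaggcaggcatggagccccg

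Promoter windows of 300 bases (250 before the start) matched 21 of the 32 genes by symbol, with 27 promoters in all, and motifs were searched on both strands. The PPAR element, a direct repeat of AGGTCA with a spacer of 1 base, was in 0 of the 27, as in 0.0396% of the 32851 promoters of the table. TTGCGCAA was in 1 of 27 (3.7%, against 0.183% of all promoters). The looser C/EBP form TTGCNNAA, which includes it, was in 4, those of Cidec, Lep, Plin1 and Pparg (14.8%, against 10.8%). The E-box CACGTG was found in that of Lipe, the SREBP site TCACNCCAC in that of Acsl1 and the AP-1 site TGANTCA, the site that JunB dimers bind, in that of Cidec (3.7% each, against 7.15%, 1.24% and 7.81% of all promoters). These are matches of letters in a short window, and their relation to the signals was not tested.

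Of the lipid droplet proteins, Plin1, the perilipin that coats the droplet of white fat cells, could not be tested, because none of its probes was well above background on more than 1 array. The brightest of them gave -3.39 and -4.59 in the controls against -5.39 and -5.21 in the mutants. Another, also above background on 1 array, gave -4.55 and -4.88 against -6.09 and -3.51, with overlap. Aqp7, the channel by which fat cells release glycerol, did not rise well above background on any of the arrays. So 2 genes that mark fat cells could not be measured here, while Adipoq was above background on 3 arrays and Cfd and Fabp4 on all 4.

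The other droplet proteins were lower by less than Retn, Adipoq and Cfd. Plin4, a perilipin of small droplets, gave 0.88 and 1.33 in the controls against 0.64 and 0.80 in the mutants. Its groups did not overlap, by -0.38 ± 0.19 (limma adjusted p = 0.592), and by -0.16 to -0.60 with 1 array left out. Cidec, which lets droplets fuse into a single large one, gave 1.88 and 2.51 against 1.08 and 1.96, and mutant replicate 2 lay above control replicate 1. The difference in Cidec was -0.68 ± 0.35 (limma adjusted p = 0.608), or -0.23 without mutant replicate 1 and -1.12 without mutant replicate 2. Cidea, its relative in brown fat, overlapped between genotypes as well, with -2.95 and -2.59 against -3.49 and -2.80 (-0.38 ± 0.34, adjusted p = 0.740), and ran from -0.035 to -0.72 in the same 2 fits.

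Fabp4, the fatty acid carrier of the fat cell cytosol, gave 2.08 and 2.49 in the controls against 1.20 and 1.90 in the mutants. It was lower without overlap by -0.74 ± 0.27, or 1.67-fold (limma adjusted p = 0.522), and another probe gave -0.90. Fabp4 is also made by capillary endothelium and macrophages. Adrb3, the adrenergic receptor that starts lipolysis in fat, gave -1.38 and -1.82 against -2.30 and -2.77. The mutant values of Adrb3 all lay below the control values, by -0.93 ± 0.27, or 1.90-fold (limma adjusted p = 0.439). Mrap, the partner of the corticotropin receptor, was above background on 1 array of each genotype, at -2.63 and -4.39 against -4.13 and -3.34, and its difference of -0.23 ± 0.67 had no settled sign, with -1.11 to 0.65 when single arrays were left out.

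The fat-restricted differences varied with the arrays included. Leaving out 1 array also leaves 1 genotype with a single sex, so these shifts are contrasts of sex as well. Adipoq, Cfd and Thrsp kept an unadjusted limma p under 0.05 with any 1 array left out. Retn did not without either mutant array, Fabp4 did not without control replicate 2 or mutant replicate 1, and Adrb3 did not without control replicate 1 or mutant replicate 2. With normexp and its offset of 50 in place of the scanner's processed signal, other dim genes moved toward 0 as well: Retn to -1.26, Thrsp to -0.94 and Adrb3 to -0.46. With all 4 arrays, the unadjusted limma p of Retn was 0.059 with normexp, 0.053 without the intensity trend and 0.051 without the filter on dim probes. That of Fabp4 was 0.068 without the trend and 0.052 without the filter.

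**Figure D2:**
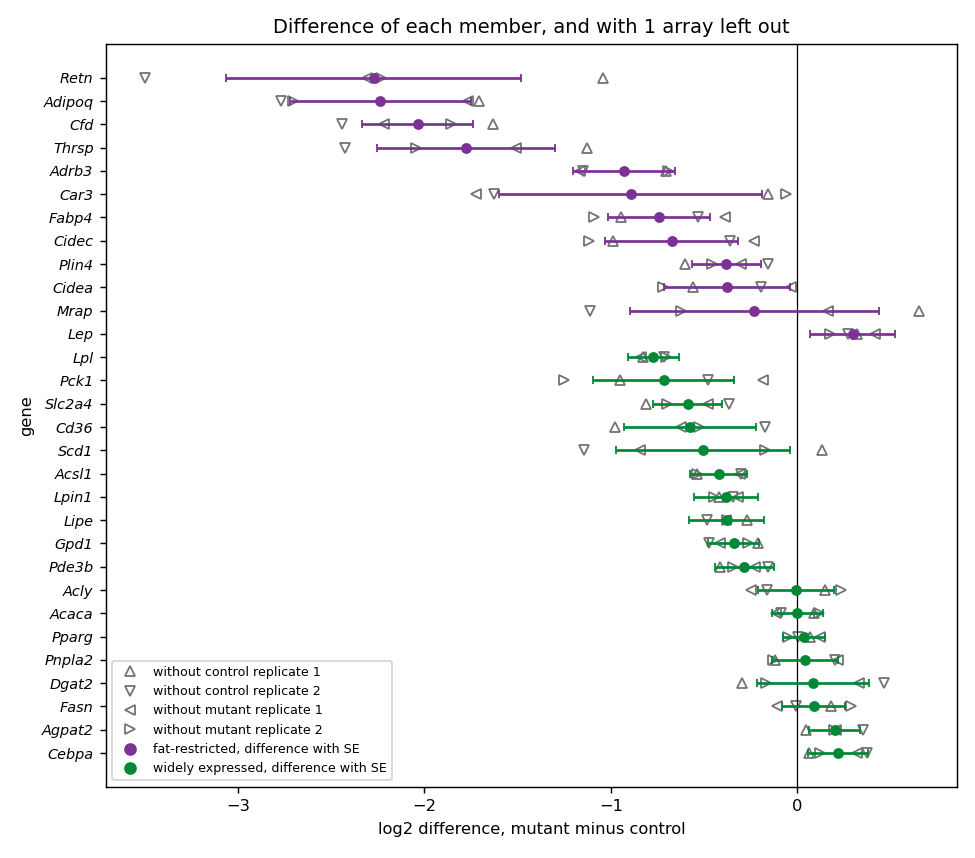
Filled points are the log2 difference of each member, mutant minus control, with bars of 1 SE (x axis), in purple for the fat-restricted and green for the widely expressed genes. Open grey symbols are the same difference with 1 array left out. Adipoq, Cfd, Retn and Thrsp stay below -1 in every case, although Retn spans -3.50 to -1.04, and Mrap, Scd1 and several genes near 0 cross it.

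Among the widely expressed genes, those for the supply of fatty acids and glucose were lower, and so were several genes of the other roles described below. Lpl encodes lipoprotein lipase, which frees fatty acids from lipoproteins at the capillary wall, and also comes from muscle and macrophages. It gave 0.19 and 0.31 in the controls against -0.45 and -0.59 in the mutants. The arrays of each genotype lay close together, and Lpl differed by -0.77 ± 0.14, or 1.71-fold lower (limma adjusted p = 0.418), and its unadjusted p stayed under 0.05 whichever array was left out. Of its 5 probes above background, 4 were lower, between -0.77 and -0.56, and the second brightest was at 0.050. Among the 4, the probe at -0.65 was above background in the controls alone, so the filter fixes its direction. The probe printed here, which gave -0.56, lies within the coding part at chr8:71425050-71425109 of mm9.

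Lpl probe: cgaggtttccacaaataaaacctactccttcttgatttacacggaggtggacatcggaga

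Slc2a4, the insulin-responsive glucose transporter of fat and muscle, gave 1.91 and 2.36 against 1.44 and 1.65. Its groups did not overlap, and it differed by -0.59 ± 0.19 (limma adjusted p = 0.472). Acsl1, which couples fatty acids to coenzyme A, gave 1.02 and 1.25 against 0.60 and 0.83, lower without overlap by -0.42 ± 0.15 (limma adjusted p = 0.513). For both genes the unadjusted p was above 0.05 without control replicate 2 or mutant replicate 1. Cd36, a fatty acid receptor also found on endothelium and macrophages, gave -3.27 and -2.46 against -3.40 and -3.49, and its difference of -0.58 ± 0.35 was -0.17 without control replicate 2 and -0.98 without control replicate 1 (adjusted p = 0.645 with all arrays).

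For the synthesis of glycerol and triglyceride the values were mixed. Pck1, which makes the glycerol backbone from pyruvate-derived carbon, gave 1.68 and 2.15 in the controls against 0.66 and 1.73 in the mutants. Mutant replicate 2 overlapped the controls, and the difference was -0.72 ± 0.38 (adjusted p = 0.608), or -0.18 without mutant replicate 1 and -1.25 without mutant replicate 2. Gpd1 (-0.34), which reduces dihydroxyacetone phosphate to glycerol 3-phosphate, and the phosphatidate phosphatase Lpin1 (-0.38) were lower on both mutant arrays than on both controls, but the other passing probe of Lpin1 gave -0.085 with overlap. Dgat2 (0.082), which adds the last fatty acid, overlapped, and Agpat2 (0.20), which adds the second, was higher on both mutant arrays; both took a negative sign with quantile normalization (-0.039 and -0.014).

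The enzymes that make fatty acids from acetyl-CoA showed no shared direction. The differences were -0.0077 for Acly, which cleaves citrate to acetyl-CoA, -0.00017 for Acaca, which makes malonyl-CoA, and 0.087 for Fasn, the synthase. Each was under its SE. Centring on the median gave 0.0044 for Acly and 0.012 for Acaca, and quantile normalization gave -0.092 for Fasn, so that the signs changed with the scaling. Scd1, which desaturates stearate, gave 0.70 and -0.58 in the controls against -0.11 and -0.78 in the mutants. In both genotypes Scd1 was higher on the array of replicate 1, the array with high Xist. The Scd1 difference of -0.51 ± 0.47 (limma adjusted p = 0.751) was 0.13 without control replicate 1.

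Of the genes for lipolysis and its control, the hormone-sensitive lipase Lipe (-0.38) and the phosphodiesterase Pde3b (-0.29), by which insulin restrains lipolysis, were lower on both mutant arrays than on both controls. Pnpla2 (0.042), the lipase that takes off the first fatty acid, was not, and its sign changed with quantile normalization (-0.032). The Lipe value came from the only 1 of its 3 probes that passed the filter, which is annotated to a transcript other than the RefSeq one. The probe of the RefSeq transcript was too dim to pass, with 0 arrays above background. It gave -4.73 and -4.37 in the controls against -4.95 and -4.33 in the mutants, with overlap (-0.089). Whether the RefSeq transcript of Lipe was lower could thus not be measured. The transcription factors Pparg (0.035, or -0.056 with quantile normalization) and Cebpa (0.22) overlapped between genotypes. Both are also made outside fat, including in colon epithelium for Pparg and in myeloid cells for Cebpa.

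The median of the 18 widely expressed genes depended on the arrays and probes. It was -0.17 without control replicate 2, -0.22 without mutant replicate 2 and -0.24 without either of the other arrays. It was -0.14 with normexp and -0.10 with the second brightest probe. That of the fat-restricted genes was -0.90 within the pair of replicate 1 and -0.73 within that of replicate 2, and lay between -1.13 (without control replicate 2) and -0.78 (without mutant replicate 1). With normexp it was -0.68.

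The fat-restricted genes did not vary together across the 2 controls. By Xist and Eif2s3y the 2 controls also differed in sex, so replicate and sex cannot be told apart here. Adipoq, Cfd, Retn, Lep, Adrb3, Mrap, Thrsp and Car3 were higher in control replicate 1, whereas Plin4, Cidec, Cidea and Fabp4 were higher in control replicate 2. The gap was 2.46 for Retn, 1.30 for Thrsp, 1.06 for Adipoq and 0.81 for Cfd in the first set, and 0.63 for Cidec, 0.45 for Plin4 and 0.41 for Fabp4 in the second. In the mutants 4 of the 12 were higher in replicate 1.

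A wider list of 69 other fat cell genes (further droplet proteins, regulators, enzymes and secreted factors) had 59 members tested, of which 37 were lower (46.6% of all genes were) and 22 higher in the mutants, with a median of -0.16. At an unadjusted limma p under 0.05, 6 of the 59 were lower (3.98% of all genes were): the carboxylesterase Ces1d, which hydrolyses triglyceride (-1.10 ± 0.31), Cav1, the caveolin of fat cells and endothelium (-0.77 ± 0.24), the apolipoprotein Apoc1 (-0.61 ± 0.17), the monoglyceride lipase Mgll (-0.53 ± 0.16), the retinol carrier Rbp4 (-0.40 ± 0.12) and the acyltransferase Gpam (-0.30 ± 0.11). On the same basis 2 of the 59 were higher (5.31% of all genes were): Cebpd, an early regulator of fat cell differentiation that inflammation also induces (0.72 ± 0.17), and Lmf1, which matures lipases (0.33 ± 0.12). The median of the list became 0.025 without control replicate 2 and -0.017 without mutant replicate 1.

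Of 12 genes of thermogenic (brown and beige) fat, 7 were tested and 4 were lower, with a median of -0.27, or -0.028 without control replicate 1. Ucp1, the uncoupling protein that defines brown fat, did not reach the 2 arrays above background that a test needed. Dio2, which activates thyroid hormone, was higher at 0.80 ± 0.28 (limma adjusted p = 0.512). None was lower at an unadjusted p under 0.05. The lowest were the muscle and brown fat subunit Cox8b (-0.66) and the coactivator Ppargc1a (-0.50).

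**Figure D3:**
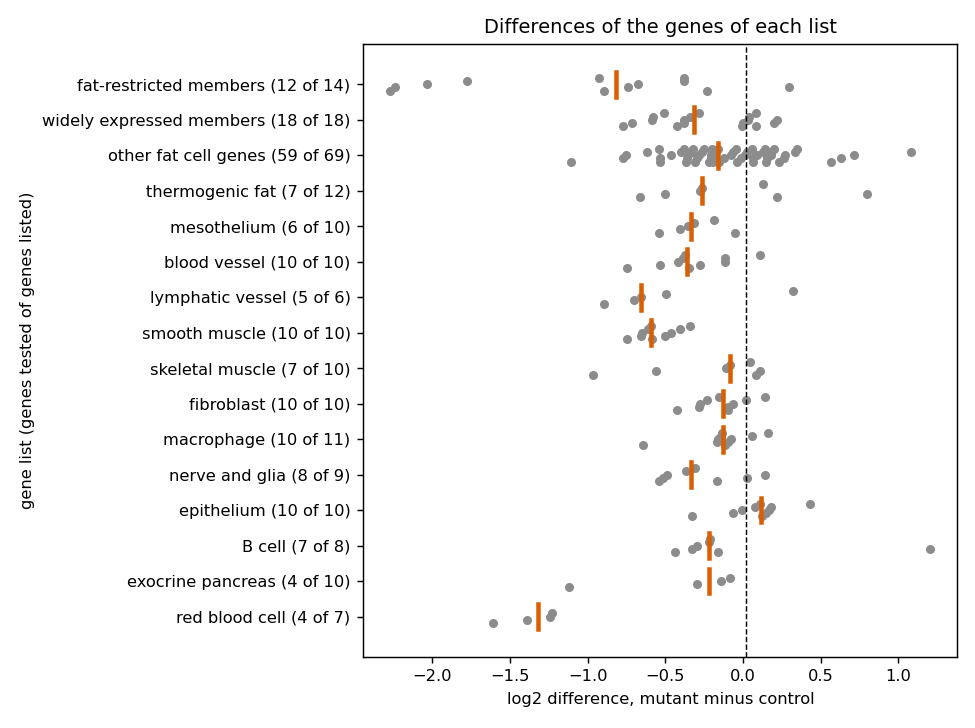
Each grey point is 1 gene: its log2 difference, mutant minus control (x axis), for the genes of each list that were above background in both genotypes, with the list's median as an orange bar and the median of all genes tested as a dashed line. The medians of the fat-restricted genes (-0.82), of red blood cell genes (-1.32), of lymphatic genes (-0.65) and of smooth muscle genes (-0.59) lie farthest to the left, and that of epithelial genes lies to the right of the dashed line (0.11, or -0.047 with quantile normalization).

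Genes of other tissues on the outer side of the bowel, and of other cells, were also lower in the mutants, and their part in the fat gene result was not tested. The 6 mesothelial genes (of 10) that were above background in both genotypes were all lower, with a median of -0.33 and Wt1 at -0.54, and their mean signal was -1.32 and -1.13 in the controls against -1.58 and -1.49 in the mutants. Upk3b, which marks mesothelium, was above background in the controls alone and is not counted, since the filter then fixes its direction. Of the smooth muscle genes 10 of 10 were lower and 9 had an unadjusted limma p under 0.05 (3.98% of all genes were lower at that p), with Smtn at -0.59 and Des at -0.66, and their mean signal was 3.98 and 4.10 against 3.47 and 3.50. The fat-restricted genes had means of -0.15 and -0.77 against -1.58 and -1.38. For the mean of each of these 3 lists both mutant arrays lay below both controls.

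Blood vessel genes were lower for 9 of 10 (median -0.36, Cldn5 at -0.75) and lymphatic genes for 4 of 5 measured of 6 (median -0.65, Reln at -0.90 and Prox1 at -0.50), but the mean signals of the genotypes overlapped in both lists. They ran from -0.88 to -0.40 in the controls and from -1.20 to -0.73 in the mutants for blood vessels, and from -0.37 to 0.02 and from -1.01 to -0.31 for lymphatics. Red blood cell genes were lower for 4 of 4 measured of 7 (median -1.32, Hbb-b1 at -1.61 and Hba-a1 at -1.24), at 0.36 and 1.26 against -1.19 and 0.07. Of the exocrine pancreas genes, 4 of 4 that were above background in both genotypes (of 10) were lower, with a median of -0.22 and Clps at -1.12, and their mean signals overlapped between genotypes. Amy2a5, the pancreatic amylase, was above background in the controls alone, at a mean of -2.47, and is not counted for the same reason.

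Of the remaining lists, all but nerve and glia had smaller median shifts than mesothelium. Fibroblast (8 of 10 lower) and macrophage genes (8 of 10 measured of 11) both had a median of -0.13, with Mrc1, a marker of resident macrophages, at -0.64. Nerve and glia genes had 6 of 8 measured of 9 lower (median -0.34, with Ret at -0.51 and S100b at -0.54). The means of that list were -0.40 and -0.47 against -0.84 and -0.57, so both mutant arrays lay below both controls here too. B cell genes had 6 of 7 measured of 8 lower (median -0.22, Ms4a1 at -0.44), and the other was higher, at 1.21. Skeletal muscle genes had 4 of 7 measured of 10 lower (median -0.08, Ckm at -0.97 and Acta1 at -0.56). The means of the skeletal muscle list were -2.33 and -2.48 against -2.50 and -2.73. Epithelial genes had 3 of 10 lower and a median of 0.11, with Cdx2 at 0.43, but quantile normalization gave 7 of 10 lower and a median of -0.047. The median of skeletal muscle genes took a positive sign with normexp (0.050), with quantile normalization (0.00087) and without control replicate 1 (0.079). Blood vessel, fibroblast, macrophage and smooth muscle genes were mostly higher in control replicate 2 than in control replicate 1 (9 of 10 in each list), as were lymphatic (4 of 5) and red blood cell genes (4 of 4). Plin4, Cidec, Cidea and Fabp4 went the same way, and the other 8 fat-restricted genes the opposite way. Without control replicate 2 the medians were -0.097 for blood vessel, 0.15 for fibroblast and 0.23 for macrophage genes, and without mutant replicate 1 they were -0.14, 0.0012 and 0.057. Without control replicate 1 the same 3 medians were -0.47, -0.46 and -0.50, and without mutant replicate 2 they were -0.60, -0.36 and -0.29. In the fits without control replicate 2 and without mutant replicate 1 the fat-restricted genes had medians of -1.13 and -0.78, smooth muscle genes -0.48 and -0.58, mesothelial genes -0.16 and -0.23, lymphatic genes -0.52 and -0.25, and red blood cell genes -0.82 and -0.70. In those without control replicate 1 and without mutant replicate 2, the fat-restricted median was -0.83 and -0.91, that of smooth muscle -0.62 and -0.60, of mesothelium -0.46 and -0.38, of lymphatics -0.75 and -1.08, and of red blood cells -1.81 and -1.96.

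**Figure D4:**
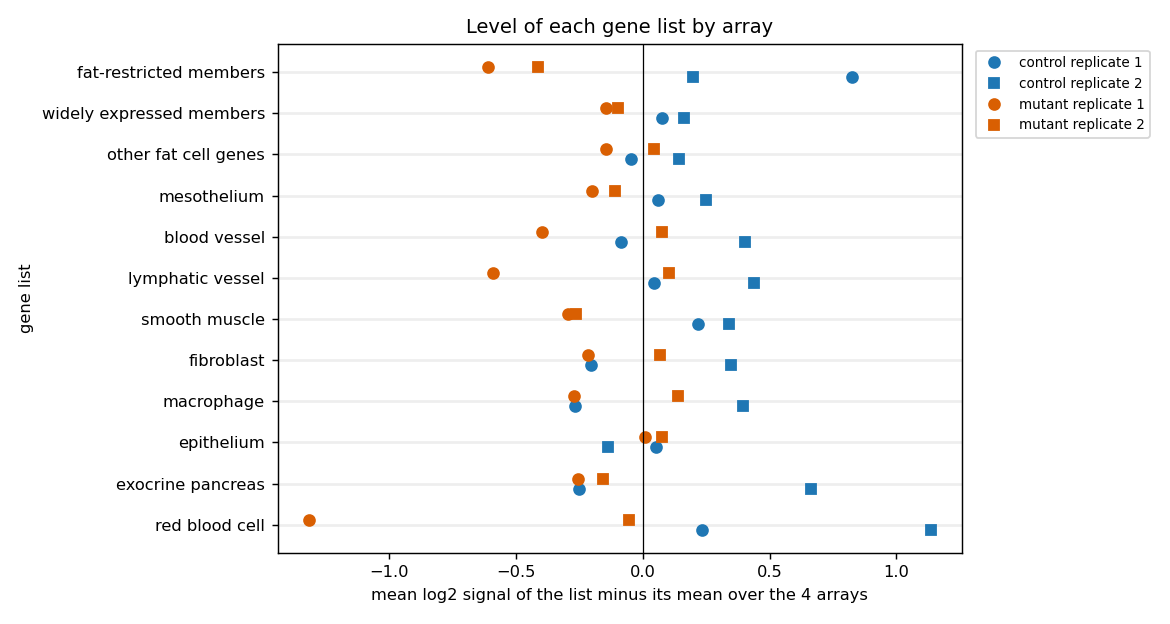
Points are the mean log2 signal of a gene list on 1 array minus its mean over the 4 arrays (x axis), blue for controls and orange for mutants, with circles for replicate 1 and squares for replicate 2. Of the lists drawn, the fat-restricted, widely expressed, mesothelial, smooth muscle and red blood cell lists separate the genotypes, and control replicate 1 is the highest array for the fat-restricted list and control replicate 2 for vessels, fibroblasts, macrophages and red blood cells.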

How the data were processed

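The authors hybridised total RNA of whole colon to one-colour (Cy3) Agilent arrays and deposited the output of Agilent Feature Extraction 11.5.1.1, per the submitters' processing notes. The column used is the processed signal, an intensity that the authors' scanner software had background-corrected, per the file headers. Control spots and spots with an outlier mark were left out, each array's log2 signal was set relative to its 75th percentile, spots of a probe were averaged, and a probe was kept if 2 or more of the 4 arrays marked it as well above background. Each gene was read from its brightest such probe. Genotypes were compared with limma 3.58.1 (R 4.3.3), fitting an intensity trend in the eBayes step and no block, as a two-sided test, with Benjamini-Hochberg adjustment over 19325 genes. The scripts were tested on simulated data.

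The members and the lists were chosen with earlier results of these data known, so counts and medians are descriptions. Members were named in full if fat-restricted, or if widely expressed with p under 0.05 or a difference of at least 0.5. The genes named from the other lists were those of smallest p (up to 6 in each direction for fat cell genes, up to 2 for other tissues), or the 2 largest differences where fewer had p under 0.05. The small number of arrays, 2 per genotype, limits the precision. Probe positions are those of the files (mm9), and promoters are RefSeq's for GRCm38.p6. Alternatives were other background correction, scaling, filters and probe choices, a fit without the trend, the replicate number as a block, each array left out and, added after seeing the data, dim signals set to a floor and lists without genes above background in 1 genotype only.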

Additional observations from a re-analysis of the deposited data

How the results depend on the processing

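No gene was called in any alternative except that with the replicate number as a block, which called 46, with Cfd the one member among them (adjusted p = 0.0416). Same-numbered arrays deviated together (correlation 0.239 over 19325 genes), but with 2 pairs the numbers were not taken to pair the samples. Xist and Eif2s3y follow the numbers, so this block also takes up sex. The median of the fat-restricted genes lay between -1.13 and -0.78 with 1 array left out. That of the widely expressed genes lay between -0.24 and -0.17 with 1 array left out, and was -0.14 with normexp, -0.28 with quantile normalization, -0.26 with the mean of passing probes and -0.10 with the second brightest probe. That of the other fat cell genes lay between -0.24 and 0.0253 with 1 array left out. At an unadjusted limma p under 0.05, 5 of the 12 fat-restricted genes were lower with normexp (623 of all 19325 genes) and 4 without the trend (914). Without the filter on dim probes it was 4 of 14 (2317 of 37066 genes). With probes above background on all 4 arrays it was 5 of 10 (780 of 17875 genes). The replicate block gave 9 of 12, and the other fits with all 4 arrays gave 6. Of 418 values of the 30 members under the alternatives, 24 changed sign, in 10 genes, and the cause was not tested. Quantile normalization turned Pparg (-0.0564), Fasn (-0.0916), Dgat2 (-0.0386), Agpat2 (-0.0142) and Pnpla2 (-0.0316), centring on the median turned Acaca (0.0119) and Acly (0.0044), the mean of passing probes turned Acaca (0.0802), and the second brightest probe turned Acaca (0.11) and Lpl (0.0498). With 1 array left out the ranges were -1.11 to 0.65 for Mrap, -1.14 to 0.13 for Scd1, -0.0510 to 0.12 for Pparg, -0.11 to 0.29 for Fasn, -0.12 to 0.11 for Acaca, -0.25 to 0.23 for Acly, -0.30 to 0.46 for Dgat2 and -0.13 to 0.22 for Pnpla2. Without the filter on dim probes 37066 genes were tested and the median of all genes was -0.12. The slide as a block was not run, because all arrays lay on 1 slide. Signals near background, as for Plin1, Aqp7 and Mrap, limit what these arrays measure, and a lone array left in a genotype was assumed to vary like the other genotype's.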
